A study of Bos taurus with 20 samples.

Results

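PCK1, the cytosolic phosphoenolpyruvate carboxykinase, was followed here in the endometrium of the cow together with 8 genes of gluconeogenesis and glucose uptake: PCK2, PC, FBP1, FBP2, SLC2A1, SLC2A3, SLC2A4 and SLC5A1. These 9 genes, of 25381 gene names or identifiers on the array, have 27 probes of 43653 in all. 20 of the 27 probes, with at least 1 for each gene, passed a filter on dim probes, which asked for a signal flagged as above background by the scanner software on 8 or more of the 20 arrays. So did 33763 of all probes. The group was chosen by the measured difference of PCK1 between late and early samples. That difference is therefore given as a description and carries no test, and the other genes were added for their place in the pathway. The samples were endometrial biopsies of 10 cows, each taken on the seventh day after oestrus, on the side where the corpus luteum lay. Every cow gave an early sample, 42 to 86 days after calving, and a late sample, 343 to 436 days after calving, so each cow serves as its own control, and no other group was analysed here. The labels give no breed, parity, milk yield or feeding for either period.

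Gluconeogenesis makes glucose from lactate, amino acids and propionate, and in ruminants it supplies nearly all blood glucose. PC turns pyruvate into oxaloacetate, PCK1 in the cytosol and PCK2 in the mitochondrion turn oxaloacetate into phosphoenolpyruvate, and the fructose-bisphosphatases FBP1 and FBP2 act near the end of the route. Liver and kidney complete it. In tissues that release no glucose, PCK1 is known for glyceroneogenesis in fat cells and for the removal of citric acid cycle intermediates. The endometrium takes up glucose through facilitative transporters of the SLC2A family and secretes part of it into the uterine lumen for the embryo, and SLC5A1 is a sodium-coupled glucose transporter known from the intestine.

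PCK1 was read by 3 probes, all on the minus strand of chromosome 13 in the Btau_3.1 build that the array's annotation uses. The probe by which PCK1 was chosen, A_73_113063, lies at chr13:59373116-59373175. The probe A_73_P283236 lies 138 bases upstream at chr13:59373254-59373313, and A_73_P348596 lies 2248 bases upstream, where its 60 bases span 676 bases of the genome. Whether a probe lies in coding or untranslated sequence is not given in the files. A stretch of 30 bases of each of the 2 probes that gave signal is shown because the values below differ between them. Capitals mark letters that match a tandem run of CCCTAA, the C-rich strand of the vertebrate telomere repeat.
PCK1 A_73_113063, bases 31 to 60: ttcaacattttcCCCTAACacttcttggga
PCK1 A_73_P283236, bases 31 to 60: ctaaaacgtatttaatgactttggaaaaat

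Levels are log2 of the background-subtracted signal minus the 75th percentile of the array, so a level of 0 equals that percentile and 1 unit is a doubling. The share of probes well above background ran from 71.8% to 80.2% over the arrays, and saturated spots were absent. The number of arrays limits the precision. Early arrays of cows 4 and 9 correlated less with the other arrays of their period (medians of 0.941 and 0.965) than the remaining 18 arrays did (0.974 to 0.985). The arrays lay on 5 slides, of which 2 held early samples alone, 2 held late samples alone and 1 (slide 3) held early cows 9 and 10 beside late cows 1 and 2. Period and slide were thus almost fully confounded. Of 19422 genes tested with limma, paired by cow, 256 (1.32%) passed an adjusted p of 0.05, 105 of them higher and 151 lower late. The share of higher among the called genes was 41.0%, and it was 53.3%, 51.7% and 51.0% with normexp background correction, quantile normalization and scaling to the median of detected probes. With slide as a further fixed block 0 genes passed, and 366 had an unadjusted p under 0.05 (limma). Only slide 3 held both periods, so that fit estimates the difference between periods less precisely than the paired fit. A count of 0 there cannot be read as absence of change.

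PCK1 signal from probe A_73_113063 was higher late in 9 of 10 cows. Its level ran from -6.24 to -4.37 early, with a median of -5.54, and from -5.53 to -3.24 late, with a median of -3.92. The periods overlapped through late cows 1, 2 and 7, which stayed within the early range. The mean change was 1.27 ± 0.93 (SD of the change, n = 10), or 2.41-fold. Cows 4, 5, 6 and 8 rose by 2.12 to 2.42, whereas cow 1 changed by -0.09 and cows 2 and 3 by 0.20 and 0.40. The signal was dim: 25.9 to 94.1 units early and 37.5 to 193.2 units late, on arrays whose 75th percentile lay between 1702 and 2081 units. It was nonetheless well above background on all 20 arrays.

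The other detected PCK1 probe gave a smaller difference. Probe A_73_P283236 ran from -6.60 to -4.53 early, with a median of -5.52, and from -5.62 to -4.28 late, with a median of -5.22. The late range lay inside the early range but for the 2 highest samples, late cows 8 and 10. Its mean change was 0.48 ± 0.81 (SD, n = 10), higher late in 7 of 10 cows, and the median change was 0.16. The rise came from cows 4, 8, 9 and 10 (0.81 to 1.82), and cows 5, 6 and 7 changed by 0.09 to 0.19. Early levels of this probe were lowest in cows 4, 9 and 10. Probe A_73_P348596 was well above background on 0 of 20 arrays and gave no measurement.

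**Figure D1:**
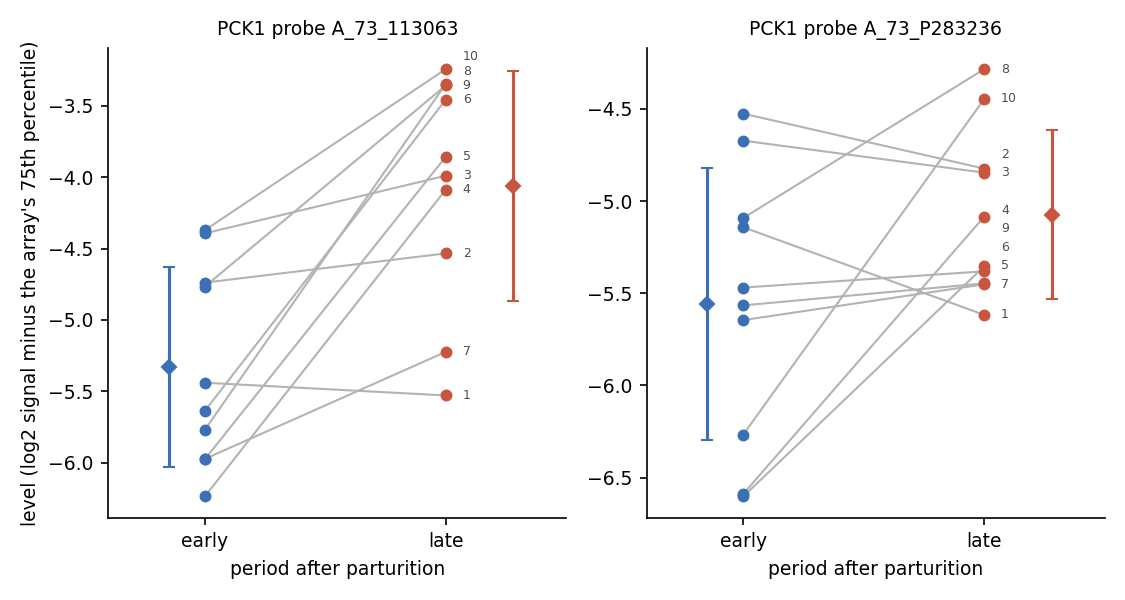
Levels of the 2 detected PCK1 probes (log2 signal minus the 75th percentile of the array) in the early and late sample of each of 10 cows. Lines join the samples of a cow, numbers name the cow, and diamonds with bars give the mean and SD. The left probe was higher late in 9 of 10 cows and the right probe in 7 of 10. The vertical scales differ, and the levels of different probes cannot be compared.

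The 2 PCK1 probes did not follow each other closely from array to array. After the mean of each period was removed, their correlation over the 20 arrays was 0.32, and 2529 of 33456 other probes correlated more closely with A_73_113063. In the same measure, the 13 probe pairs of the other members ran from 0.02 to 0.99, each pair sharing its arrays and its target gene. Pairs of PCK2, PC, FBP1 and FBP2 reached 0.98, 0.98, 0.99 and 0.96, while SLC2A1, SLC2A3 and SLC2A4 each had a pair above 0.9 and 2 lower ones (0.31 and 0.50, 0.46 and 0.59, 0.02 and 0.14). On slide 3, where early and late arrays of different cows lie side by side, the change was -0.46 for A_73_113063 and 1.21 for A_73_P283236. With slide as a fixed block the changes were 0.61 and 0.08. Normexp background correction, which compresses dim signals, gave 0.69 and 0.21. Leaving out 1 cow at a time left the change of A_73_113063 between 1.14 and 1.42.

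The probe sequences were then searched, after the values had been seen, for letters shared by probes that vary like A_73_113063. Its most alike probes had the repeat letters in common. Among 3747 motifs of 6 letters found in at least 100 passing probes, ranked by the mean correlation of their probes with A_73_113063, the first 6 were the 6 rotations of CCCTAA. Their mean correlations were 0.134 for CTAACC, 0.130 for CCTAAC, 0.127 for TAACCC, 0.0860 for ACCCTA, 0.0676 for CCCTAA itself and 0.0519 for AACCCT. Ranked by correlation with A_73_P283236, the same rotations stood between places 152 and 2708. Of the 40 probes most like A_73_113063 (correlations of 0.733 to 0.883), 29 (72.5%) held a rotation on the probe strand, against 4.27% of the 33457 passing probes that had a value on every array. The reverse complement was present in 2 of the 40 and in 2.95% of passing probes. Among all 43653 probes, 4.22% held a rotation and 0.864% matched the tandem repeat over 7 bases or more, as A_73_113063 does. This is a description of letters and levels on the same arrays, and no test was made.

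The likeness grew with the length of the match. Probes whose longest match was 4 bases or fewer (27642 probes) had a median correlation of -0.04 with A_73_113063 and a median change of -0.02. The 225 other probes with 7 bases, the length of the match in A_73_113063 itself, had medians of 0.04 and 0.03. The 65 probes with 8 bases reached 0.31 and 0.15, and the 22 probes with 9 or more reached 0.65 and 0.64, with 18 of the 22 higher late. With each probe fitted on its own, 1 of the 65 passed an adjusted p of 0.05 higher late and 1 lower (limma). Of the 22, 1 passed higher and 0 lower, against 1.13% of all probes passing. Matches on the reverse complement showed no such step: the 13 probes with 9 or more bases there had a median correlation of 0.08 and a median change of -0.05. With A_73_P283236 the correlation by match length stayed between -0.11 and 0.00.

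**Figure D2:**
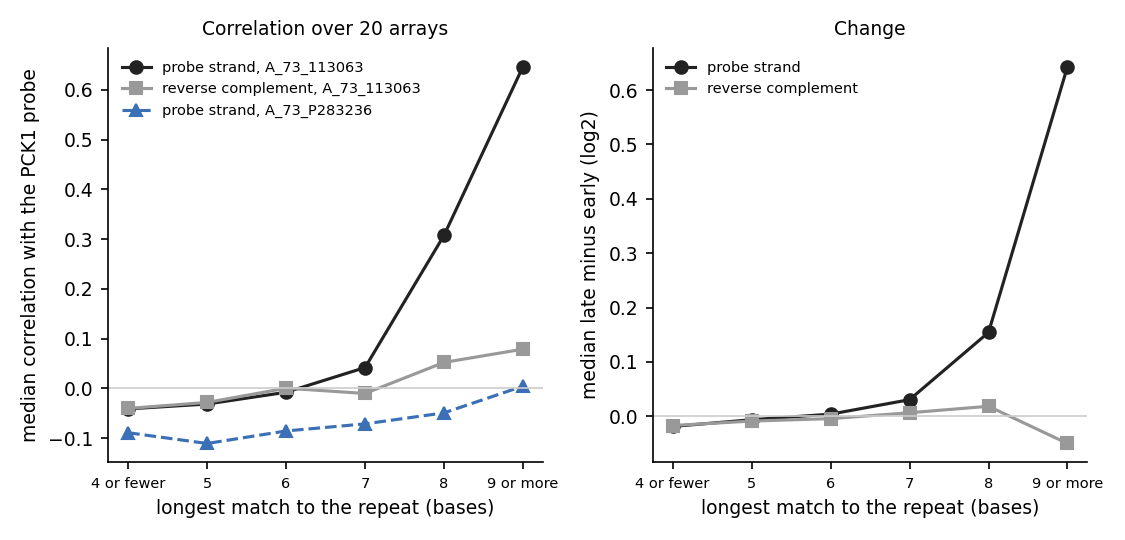
Probes grouped by their longest match to tandem CCCTAA (horizontal axis, bases), with the PCK1 probe itself left out. The left panel plots the median correlation over 20 arrays, period means removed, with each PCK1 probe, and the right panel plots the median late minus early change (log2). For matches on the probe strand, the correlation with A_73_113063 and the change both climb at 8 and at 9 or more bases. The correlation with A_73_P283236 and both values for the reverse complement show no rise of that size.

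The 87 probes with a match of 8 bases or more, longer than the 7 bases of A_73_113063, were averaged on each array. Their mean level ran from -2.29 to -1.20 early and from -2.09 to -0.89 late, and it was lowest in cow 1 in both periods. The change was 0.33 ± 0.34 (SD over cows, n = 10), higher late in 9 of 10 cows. With period means removed, this average correlated at 0.74 with A_73_113063 and at -0.04 with A_73_P283236 over the 20 arrays. Differences between slides within a period were not removed from these or the other correlations over the 20 arrays. Early cows 9 and 10, on slide 3, had the highest early averages (-1.20 and -1.29). The part of slide in these correlations was not tested. The cow-by-cow changes correlated at 0.58 and 0.16. On slide 3 alone, the average changed by -0.53, in the direction of A_73_113063 there. Of the genes called higher late, 18 of 105 (17.1%) had a representative probe with a rotation. PCK1, chosen for its change, is itself counted in the 18 and in the 105. The share was 11 of 151 (7.28%) among genes called lower and 883 of 19422 (4.55%) among all genes tested. The part of these letters in the PCK1 value was not tested.

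**Figure D3:**
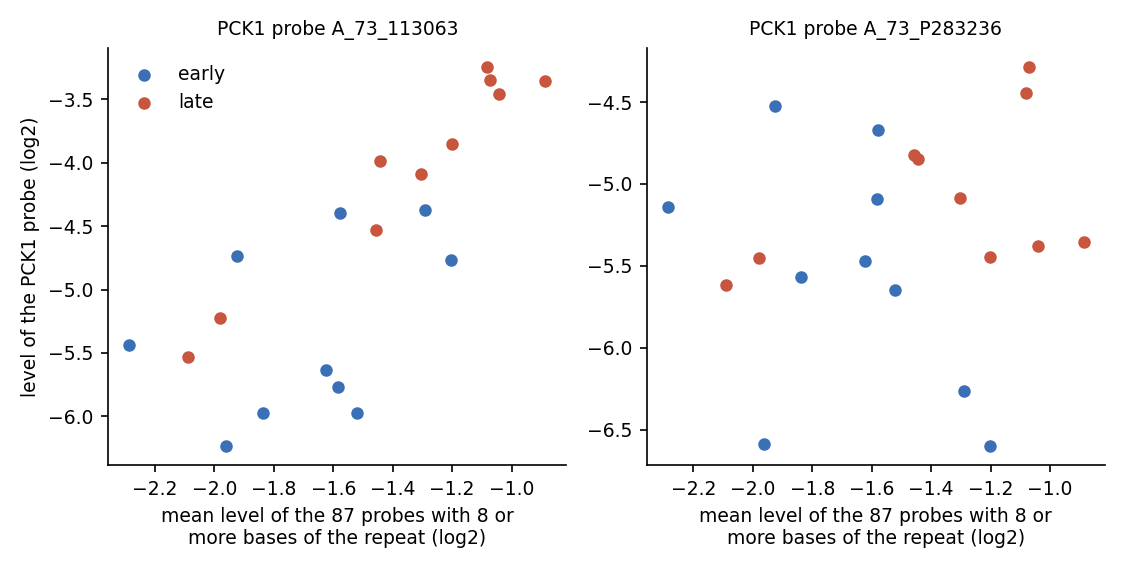
Level of each PCK1 probe (vertical axis, log2) against the mean level of the 87 probes with 8 or more bases of the repeat (horizontal axis, log2), 1 point for each of 20 arrays, early in blue and late in red. The points for A_73_113063 rise from left to right (correlation 0.74 with period means removed), and those for A_73_P283236 do not (-0.04).

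The genes most like PCK1 across the arrays were named by their representative probes. Among 13007 genes with a symbol, the 5 highest correlations with A_73_113063, period means removed, were those of HJV (0.85), a coreceptor of iron sensing, the transcription factor IKZF4 (0.84), the amino acid transporter SLC36A3 (0.84), KANK4 (0.81) and the melanosomal enzyme TYRP1 (0.79). With A_73_P283236 the same genes correlated between -0.07 and 0.23. The probes of 4 of the 5 hold a rotation of the repeat, shown here in stretches of 30 bases with the match in capitals, and that of SLC36A3 holds AACCC, a match of 5 bases.
HJV A_73_P092566, chr3:23241003-23241062: taatctccggtgACCCTAACtttactgtag
KANK4 A_73_P032616, chr3:89620437-89620496: ataacactctggCCTAACCtgaccgtttat
TYRP1 A_73_P041341, chr8:33474197-33474256: aaaatccataatCCTAACCagtctgtggtc
IKZF4 A_73_P159962, chr5:61855778-61855837: ttccttagccAACCCTttaccatccccctg
The coordinates are those of the whole probes in Btau_3.1. HJV, TYRP1 and IKZF4 were well above background on 18, 18 and 13 of the 20 arrays. The 5 lowest correlations were those of GPR158 and CCL25 (-0.69 each), MAN1A2 (-0.65), BICC1 (-0.64) and SERINC5 (-0.64). GPR158 was well above background on only 8 of the 20 arrays.

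Among the other 8 members, SLC2A4 correlated most with A_73_113063 (0.42, place 349 of 13007), and the rest lay between -0.22 and 0.20. Tested within each period over 10 cows, 0 of 16 relations between PCK1 and another member passed an adjusted p of 0.05, and 0 of 16 had an unadjusted p under 0.05 (permutation tests, two-sided, for Pearson and Spearman alike). The largest Pearson r was that of early SLC2A4, at 0.57 (permutation p = 0.0640, adjusted p = 0.936). The largest Spearman rho was that of early PCK2, at -0.53 (permutation p = 0.123, adjusted p = 0.834), with a Pearson r of -0.33. Without the 2 cows farthest from the median PCK1 level, r was 0.68 for early SLC2A4, -0.70 for late SLC2A3 and -0.91 for early PCK2. Of the 16, early PCK2 then passed (adjusted permutation p = 0.0024 over 8 cows). The cows left out early were cows 3 and 10, with the highest PCK1 levels and the highest and lowest PCK2 levels. This p therefore describes 8 cows picked by their PCK1 level and not the 10. Slides held at most 4 arrays of a period, too few for values within a slide.

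The remaining 2 enzymes that lead into phosphoenolpyruvate showed no difference past the threshold. PCK2, the mitochondrial carboxykinase (A_73_P102501, chr10:21315643-21315702, minus strand), ran from -0.31 to 1.42 early and from -0.08 to 1.13 late, with medians of 0.49 and 0.50. The late range lay inside the early range and 4 of 10 cows were higher late, a change of 0.03 (SE 0.13, limma adjusted p = 0.921). PC, pyruvate carboxylase (A_73_P426106, chr29:46774590-46774649, minus strand), ran from -1.50 to -0.05 early and from -0.95 to -0.09 late, with medians of -0.38 in both periods. Its change was 0.06 (SE 0.16, limma adjusted p = 0.839). The lowest PC level was that of an early sample, and the late samples lay within the early range. The 95% intervals of these differences ran from -0.26 to 0.32 for PCK2 and from -0.28 to 0.40 for PC. With slide as a fixed block the changes were 0.80 for PCK2 and -0.27 for PC (limma adjusted p above 0.99 for both), and on slide 3 alone they were 0.06 and 0.69. A further PC probe 20612 bases upstream was well above background on 7 of 20 arrays and did not pass the filter.

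Both fructose-bisphosphatases had higher means late without passing the threshold. FBP2, known from muscle (A_73_117442, chr8:85344924-85344983, minus strand), ran from -1.42 to 0.99 early, with a median of 0.33, and from -0.07 to 1.41 late, with a median of 0.81. It was higher late in 9 of 10 cows, by 0.79 (SE 0.27, limma adjusted p = 0.131). Cows 4, 6 and 9 had the lowest early levels (-0.98, -0.75 and -1.42) and the largest rises (2.29, 1.62 and 2.17). FBP1, known from liver and kidney (A_73_117082, chr8:85409711-85409768, minus strand), ran from -2.50 to 0.87 early and from -1.18 to 0.96 late. It was higher late in 7 of 10 cows, by 0.59 (SE 0.27, limma adjusted p = 0.228), and by 0.35 without cow 10. Its lowest early samples, cows 9 and 10 at -1.85 and -2.50, were the 2 early arrays on slide 3. The change was 1.78 on slide 3 alone and 1.99 with slide as a fixed block, while FBP2 gave 1.25 and 0.82. Without cows 4 and 9, FBP2 changed by 0.44 (limma adjusted p = 0.262).

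FBP1 and FBP2 are neighbours, with 0 protein-coding genes between them in the ARS-UCD2.0 annotation. Their levels correlated at 0.35 over the 20 arrays, period means removed. FBP1 correlated at 0.70 with PCK2, and FBP2 at 0.61 with PC. Against the mean levels of marker genes described at the end, FBP2 correlated at 0.61 with epithelium, -0.57 with macrophages, -0.46 with smooth muscle and -0.45 with stroma. FBP1 correlated at -0.59 with the liver genes and -0.47 with stroma. These are descriptions over arrays of the same cows. No run of more than 9 bases was shared between probes of different members, and none of more than 7 between FBP1 and FBP2 or between PCK1 and PCK2.

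Of the 9 members, 1 passed an adjusted p of 0.05 in the late against early fit, against 1.32% of all genes. That member was PCK1, which was chosen for it, so nothing is read from this count. When each probe was fitted on its own, 381 of 33763 probes passed (1.13%), and of the 18 passing probes of the other 8 members none did (0 at an adjusted p of 0.05, 4 at an unadjusted p under 0.05).

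**Figure D4:**
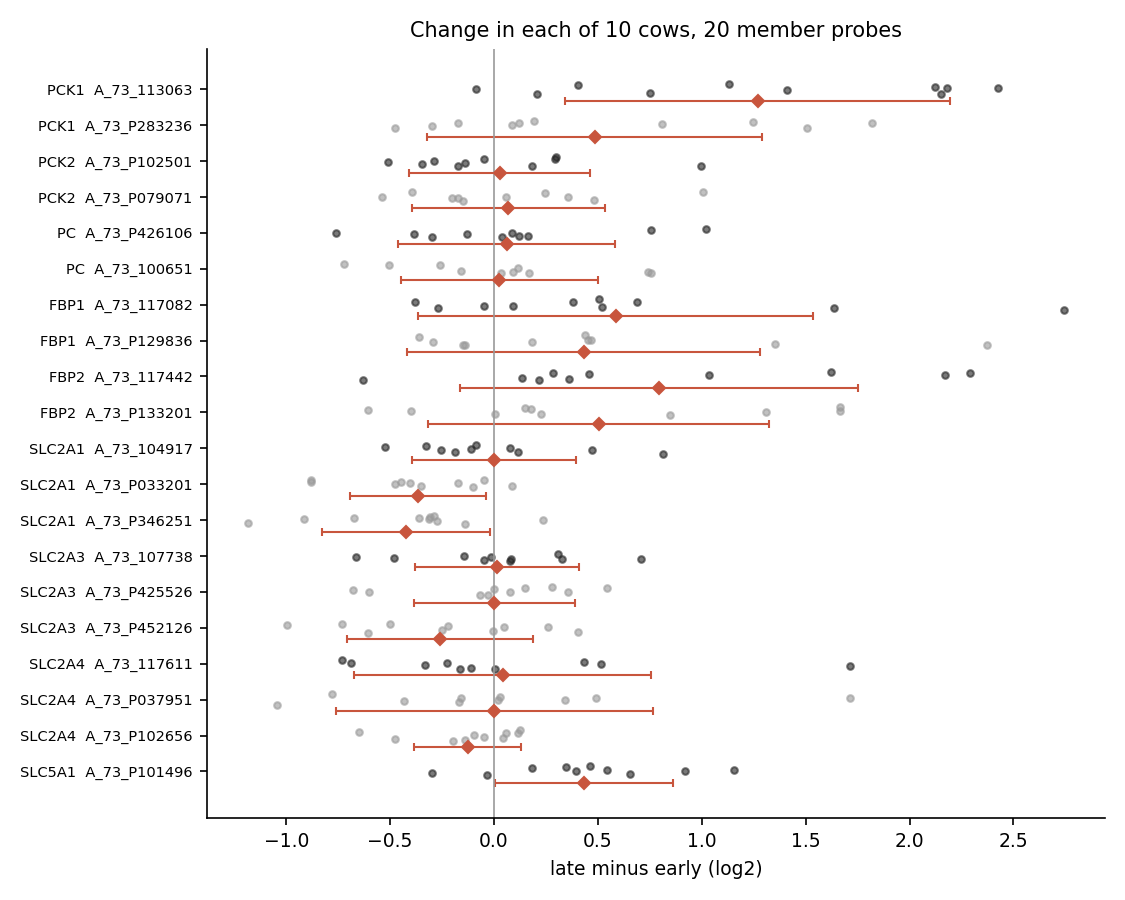
Late minus early change (log2, horizontal axis) in each of 10 cows for the 20 member probes that passed the filter. Dark points belong to the representative probe of a gene, grey points to its other probes, and red diamonds with bars give the mean and SD over cows. The means of the PCK1, FBP1, FBP2 and SLC5A1 probes lie to the right of 0 and those of the upstream SLC2A1 probes to the left. The PCK2, PC and SLC2A3 representative probes straddle 0.

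The 3 facilitative glucose transporters showed no difference past the threshold at their representative probes. SLC2A1, the widely expressed transporter GLUT1 (A_73_104917, chr3:110249154-110249213, plus strand), ran from 1.19 to 2.34 early and from 1.59 to 2.13 late, with medians of 1.95 and 1.88. The change was -0.00 (SE 0.12, limma adjusted p = 0.995). SLC2A3, the high-affinity transporter GLUT3 (A_73_107738, chr5:108852137-108852196, minus strand), changed by 0.01 (SE 0.12, limma adjusted p = 0.954), from -0.74 to 0.36 early and -0.45 to 0.41 late. SLC2A4, the insulin-responsive transporter GLUT4 of muscle and fat (A_73_117611, chr19:27367429-27367489, plus strand), changed by 0.04 (SE 0.21, limma adjusted p = 0.922). The 95% intervals ran from -0.27 to 0.27 for SLC2A1, -0.25 to 0.28 for SLC2A3 and -0.41 to 0.49 for SLC2A4. On slide 3 alone the changes were 0.46, 0.08 and -0.38. SLC2A4 levels ran from -3.71 to -1.50 early and from -2.67 to -1.98 late, and the lowest belonged to early cow 4.

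SLC5A1, the sodium-coupled transporter SGLT1 (A_73_P101496, chr17:73976538-73976597, plus strand), was at the limit of detection. Only 4 early and 4 late arrays read it well above background, at 14.0 to 35.9 units, and over all 20 arrays the lowest signal was 6.63 units. Levels ran from -8.17 to -6.35 early and from -7.26 to -5.70 late. The fitted change was 0.43 (SE 0.13, limma adjusted p = 0.101), higher late in 8 of 10 cows, and was 0.15 with normexp background correction. With slide as a fixed block it was -0.58. The other SLC5A1 probe, A_73_P037021, was well above background on 6 of 20 arrays and did not pass the filter. Its mean change went the other way, at -0.14, higher late in 4 of 10 cows. Of the members, SLC5A1 had the highest correlation between the early and late levels of a cow, at 0.77 (Pearson, permutation p = 0.00909, adjusted p = 0.0727 over 8 genes) and at 0.72 (Spearman, permutation p = 0.0236, adjusted p = 0.174), which did not pass. Without the 2 cows farthest from the early median it was 0.84. The other members gave Pearson correlations from -0.41 (SLC2A4) to 0.57 (PCK2), with adjusted permutation p from 0.332 to 0.695, and PCK1 gave 0.25.

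SLC2A1 was read by 3 probes that did not move alike. The probe nearest the 3' end, A_73_104917, changed by -0.00. The probe 636 bases upstream, A_73_P033201, ran from -3.04 to -1.64 early and from -3.39 to -2.37 late and was lower late in 9 of 10 cows, by -0.37 (SE 0.11, limma adjusted p = 0.0864 among all probes). The probe 5275 bases upstream, A_73_P346251, was also lower late in 9 of 10 cows, by -0.42 (SE 0.12, limma adjusted p = 0.0908). Both missed the threshold. The difference between the changes of A_73_104917 and A_73_P033201 was itself 0.37 ± 0.35 (SD, n = 10), positive in 10 of 10 cows (exact sign-flip test, two-sided, p = 0.00195, the smallest that 10 cows allow, adjusted p = 0.0169 over 13 probe pairs). Against A_73_P346251 it was 0.42 ± 0.51, positive in 9 of 10 cows (exact p = 0.00977, adjusted p = 0.0317). The upstream probes correlated with each other at 0.95 and with A_73_104917 at 0.50 and 0.31. These tests were added after the values had been seen. On slide 3 alone A_73_104917 and A_73_P033201 changed by 0.46 and 0.05, and with slide as a fixed block by -0.10 and -0.28. Probe A_73_P346251 changed by -0.02 in each of these fits.

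Probes of a pair also differed in FBP1 and FBP2. The FBP1 pair differed by 0.15 ± 0.13 and the FBP2 pair by 0.29 ± 0.26, each with the signed change of the 3' probe above that of the other probe in 9 of 10 cows (exact p = 0.00391, adjusted p = 0.0169 for each). No pair of PCK2, PC, SLC2A3 or SLC2A4 passed (adjusted exact p from 0.199 to 0.785). SLC2A4 probes A_73_117611 and A_73_P037951, 55 bases apart, correlated at 0.97, but A_73_P102656, 1015 bases upstream, correlated with them at 0.02 and 0.14. SLC2A3 had 6 probes, of which 3 were well above background on 0 of 20 arrays.

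The rest of the pathway was described from lists chosen with earlier results of these data known. Of their 92 tested genes, 0 passed the threshold (limma), against 1.32% of all genes, and 19 had an unadjusted p under 0.05 (20.7%, against 22.6% of all genes). Of 13 listed names for the rest of gluconeogenesis and glucose release, 10 were tested, with a median change of 0.04 against 0.02 for all genes. Listed names include aliases, such as G6PC beside G6PC1 and PKM beside PKM2. MDH1, the cytosolic malate dehydrogenase, and SLC37A4, the glucose-6-phosphate translocator, were higher late in 10 of 10 cows, by 0.32 (limma adjusted p = 0.0897) and 0.99 (0.128). The only probe for G6PC1, the phosphatase that releases free glucose, was well above background on 0 arrays. Among 22 tested glycolytic genes, of 24 listed names, 17 were lower late and 5 higher, with a median of -0.10. PFKP and ALDOA, a phosphofructokinase and an aldolase, had the smallest p, at -0.58 (limma adjusted p = 0.108) and -0.36 (0.138).

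Of 14 further glucose and hexose transporters, 10 were tested, with a median change of 0.08. SLC2A13, a myo-inositol transporter, changed by -0.62 (limma adjusted p = 0.0902), and SLC2A8, an intracellular hexose transporter, by -0.40 (0.0933), lower in 10 of 10 cows. Of 15 tested regulators known to act on PCK1, 9 were lower and 6 higher, with a median of -0.21. NR4A1, a nuclear receptor, changed by -0.39 (limma adjusted p = 0.0897), and FOXO1, the insulin-restrained activator of PCK1, by -0.66 (0.117). In the other direction, PPARGC1A and HNF4A, both activators of PCK1, changed by 0.70 (0.182) and 0.64 (0.194), higher in 10 and 8 of 10 cows. These last were named after their values had been seen. The 11 tested genes of glycogen metabolism had a median of 0.09, led by GAA at -0.42 (0.119) and PGM1 at -0.23 (0.145). The 13 of pyruvate and lactate handling had a median of 0.04, led by SLC16A7 at 0.62 (0.170) and PDHB at 0.16 (0.186). The 7 of glyceroneogenesis and fat cells had a median of 0.04, led by LIPE at 0.30 (0.254) and GPD1 at 0.26 (0.277). The 4 of fructose and polyol metabolism had a median of 0.17, led by KHK at 0.35 (0.317) and TKFC at 0.18 (0.339). Values in parentheses are limma adjusted p over all genes.

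Marker genes of the tissue were present and some of them moved with the period. In bulk tissue, fewer cells of a type and less RNA per cell cannot be told apart. The mean of 7 epithelial genes (EPCAM, CDH1, KRT8, KRT18, KRT19, FOXA2 and CLDN4), all 7 tested, ran from 0.22 to 1.75 early and from 1.24 to 2.13 late. It changed by 0.23 ± 0.40 (SD over cows), or 0.10 without cows 4 and 9, and its lowest value was early cow 9, also the lowest early sample of FBP2 and of SLC2A1. The mean of 8 stromal genes ran from 3.11 to 3.88 early and from 2.70 to 3.48 late, a change of -0.37, or -0.22 without cows 4 and 9, with 1 of 8 (HAND2) called lower, against 0.777% of all genes. The mean of 6 macrophage genes ran from -1.58 to 0.18 early and from -2.21 to -0.51 late. It changed by -0.78, or by -0.60 without cows 4 and 9. CD68, MSR1 and TYROBP were called lower (3 of 6, against the same 0.777%), whereas CD163 changed by 0.12. Of 5 fat cell genes, ADIPOQ was well above background on no array and 2 passed the filter, whose mean ran from -5.87 to -4.43 early and -6.03 to -3.99 late. The mean of the 4 liver genes ran from -3.64 to -2.02 early and from -3.77 to -2.42 late and changed by -0.04. Its genes moved in opposite directions. TTR changed by -0.71 (limma adjusted p = 0.0660), and ALB, FGB and APOA1 by 0.21, 0.29 and 0.07. Endothelial (3 genes), smooth muscle (4) and red cell (3) means changed by -0.19, 0.11 and 0.37, and smooth muscle by 0.42 without cows 4 and 9. Over the 20 arrays, period means removed, PC and SLC2A1 correlated at -0.65 and -0.68 with smooth muscle, and PCK1 between -0.15 and 0.18 with each marker list. Their part in the member values was not tested.

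Within a period, the days since calving differed between cows by 44 days early and 93 days late, a relation that the choice of PCK1 did not use. Across all genes, 0 of 19422 (0%) passed for a slope on days in either period with limma, and 1099 early and 267 late had an unadjusted p under 0.05. Per 10 days, A_73_113063 changed by -0.09 (SE 0.17, limma adjusted p = 0.968) early and by 0.12 (SE 0.08, adjusted p above 0.99) late. The early slope of FBP2 had the smallest unadjusted p of the members, at 0.45 per 10 days (SE 0.12, limma p = 0.00407, adjusted p = 0.829). Its late slope was 0.04.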

How the data were processed

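Endometrial RNA was purified on columns, spiked with one-colour controls and labelled with Cy3, per the labels' protocols. Per the submitters' processing notes and the file headers, spots were quantified in Agilent Feature Extraction 10.5.1.1. The deposited intensity values per spot are the processed (background-subtracted) signal, the raw mean and the background around the spot. A deposited table of log2 values matched the scanner values after scaling to the 75th percentile and subtracting each probe's median over arrays, and served as an alternative.

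Here log2 processed signals minus the 75th percentile of each array were used. Control and outlier spots were left out, spots of a probe were averaged, and each gene was represented by its passing probe of highest mean. Genes were tested with limma 3.58.1 (R 4.3.3), paired by cow, with Benjamini-Hochberg adjustment. The fits and the motif ranking were also run on simulated data with known answers. The simulated data held no slide effect, and the outcome is not reported here. Pairing follows the animal numbers in the titles and characteristics; the source names number late samples differently. Deviations of a cow's 2 arrays correlated at -0.11 to 0.76 (median 0.42). Named were all members, the list genes of smallest p, and the 5 highest and 5 lowest correlations with PCK1. Members and lists were chosen with earlier results of these data known.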

Additional observations from a re-analysis of the deposited data

Results flagged for a closer look

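In 60 sets of 10 values (early level, late level and change of each of the 20 passing member probes), 3 held a value far from the other 9, and chance alone marks about 1 set in 20. All 3 belong to SLC2A4 in cow 4. The early level of probe A_73_117611 in cow 4 was -3.71, and the next lowest was -2.52. The change of this probe in cow 4 was 1.71, and the next highest was 0.52. The early level of probe A_73_P037951 in cow 4 was -3.99, and the next lowest was -2.83. The 2 probes lie 55 bases apart. The other passing SLC2A4 probe, A_73_P102656, did not share the low level. It read -4.43 in early cow 4, within its early range of -5.03 to -4.30, and changed by -0.14 in that cow. The early array of cow 4 also correlated least with the other arrays of its period (0.941).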

How the results depend on the processing

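The count of genes called late against early, 256 in the paired limma fit, was 119 with no replicate block, 114 with no filter on dim probes, 35 with slide as a random block, 0 with slide as a fixed block (366 at an unadjusted p under 0.05), 0 on slide 3 alone (1723 unadjusted), and 35 to 159 without 1 cow (both arrays), the lowest without cow 10. The fits without a cow and on slide 3 rest on fewer samples, and that without the filter tests more genes. The fit with slide as a fixed block estimates the period difference less precisely, as only slide 3 held both periods. The cause was otherwise not tested. With slide as a fixed block, PCK2 changed by 0.80, PC by -0.27, SLC2A4 by -0.38 and SLC5A1 by -0.58, the mean of the repeat probes by 0.78, and the early PCK1 slope was 0.040. On slide 3 alone, PCK1 changed by -0.46, PC by 0.69, SLC2A1 by 0.46, SLC2A4 by -0.38, SLC2A1 probe A_73_P033201 by 0.048 and the repeat probes by -0.53. Members near 0 changed sign: SLC2A1 was 0.0023 with slide as a random block, 0.025 with median scaling and 1.3e-05 in the deposited table, and SLC2A3 was -0.0023 with normexp. Without cows 4 and 9, chosen after seeing the data, PCK2 was -0.027, PC -0.15, SLC2A3 -0.010 and SLC2A4 -0.071. Without 1 cow, PCK2 ran from -0.081 to 0.087, PC from -0.045 to 0.15, SLC2A1 from -0.092 to 0.057, SLC2A3 from -0.062 to 0.090, SLC2A4 from -0.14 to 0.13 and the early PCK1 slope from -0.17 to 0.055. Early day trends called ran from 0 to 1 (1 without cow 10). Without the 2 cows farthest from the median PCK1 level, 1 of 16 relations passed, early PCK2 with a Pearson r of -0.91 over 8 cows (adjusted permutation p = 0.0024). Over all 10 cows this r was -0.33, and the cows left out (3 and 10) had the highest and lowest early PCK2 levels. SLC5A1 had no probe well above background on all arrays and so no value under that filter. Leaving out the pairing changed no call of the 8 members other than PCK1, which carried no test. The low signals of PCK1 and SLC5A1 limit their precision.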
